A study of Mus musculus with 2 samples.

Results

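Immediate early genes are the genes that a cell switches on within minutes of a signal, without making new protein first. The 10 members described here were picked by symbol and are Fos, Fosb, Jun, Junb, Jund, Egr1, Egr2, Egr3, Nr4a1 and Zfp36. No value of these data entered the rule, but earlier results of these data were known when the members were chosen. All 10 were found among the 22342 protein-coding genes of GENCODE release M1 on chromosomes 1 to 19 and X. To describe their chromatin, the DNase I hypersensitive sites (DHS) overlapping each gene body or the 50 kb on either side were collected, which gave 132 DHS out of 47542 in the list. The DHS counted closest to an edge, at Fosb, reached 892 bp into the window and had a score of 82.93, and the nearest DHS left out lay 1167 bp beyond the same edge, with a score of 57.72.

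The cells were B cells of the spleen, selected with beads against B220 at 8 weeks of age, from the strain C57/Bl6 with genotype Trp53+/+ and mock treatment. DNase I cuts open chromatin preferentially, and stretches rich in the resulting short fragments were called as peaks. The series has 1 DNaseI library and 1 input library of the same genotype, strain and treatment, so there were no replicates, and every comparison is a description of 1 library with no test. Apoptotic cells were removed on a Ficoll gradient before digestion, and no library of stimulated cells was analysed here, so the effect of handling on these genes was not tested.

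The label of the cells was checked against marker genes by whether a DHS lay over a transcription start site (TSS). This was so for 45.1% of all protein-coding genes, and for all 8 B cell markers, 0 of 8 T cell markers, 0 of 5 NK cell markers, 0 of 6 erythroid markers and 1 of 8 myeloid markers, which was Cd14. Of 5 plasmacytoid dendritic cell markers 3 had one and Siglech and Klk1 did not, and of 5 plasma cell markers Igj alone did not. With a DHS within 1 kb of the TSS counted instead, the T cell list rose to 2 of 8, and the NK, erythroid and myeloid lists to 1, 1 and 2. Over all protein-coding genes, 11836 of 22342 had a DHS within 1 kb.

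The products of these genes are mostly transcription factors. Fos and Fosb pair with Jun, Junb or Jund to form AP-1, which binds the words TGACTCA and TGAGTCA. Egr1, Egr2 and Egr3 are zinc finger factors that bind GC-rich sites, Nr4a1 (Nur77) is an orphan nuclear receptor known as a reporter of antigen receptor signalling in lymphocytes, and Zfp36 (tristetraprolin) binds AU-rich mRNAs and speeds their decay. In the textbook account, signals reach several of these promoters through serum response factor, which binds the CArG box (also called serum response element), and through CREB and related factors, which bind the cAMP response element TGACGTCA. In B cells several of these genes are known to respond to the antigen receptor.

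The promoter sequences are shown first so that the words they hold, which differ from member to member, can be read. Each is read from the mm9 genome on the strand of the gene, 5′ to 3′, and positions are counted from the TSS, with the base before it as -1. Capitals mark the CArG box, the word TGCGTCA on either strand, the EGR site (GCGNGGGCG on either strand) and the TATA box (TATAAA), as far as named with each sequence.

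The Fos stretch lies at chr12:86814520-86814819 on the plus strand, from -320 to -21, with the CArG box, TGCGTCA and the TATA box in capitals. The Fosb stretch lies at chr7:19895395-19895684 on the minus strand, from -290 to -1, with the CArG box, TGCGTCA and the EGR site in capitals.
Fos promoter: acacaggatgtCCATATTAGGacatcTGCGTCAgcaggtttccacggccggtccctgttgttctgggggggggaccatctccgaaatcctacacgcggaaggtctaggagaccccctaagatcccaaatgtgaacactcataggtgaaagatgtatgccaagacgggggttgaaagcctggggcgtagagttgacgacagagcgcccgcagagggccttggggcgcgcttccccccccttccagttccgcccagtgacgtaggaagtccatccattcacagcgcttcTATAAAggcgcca
Fosb promoter: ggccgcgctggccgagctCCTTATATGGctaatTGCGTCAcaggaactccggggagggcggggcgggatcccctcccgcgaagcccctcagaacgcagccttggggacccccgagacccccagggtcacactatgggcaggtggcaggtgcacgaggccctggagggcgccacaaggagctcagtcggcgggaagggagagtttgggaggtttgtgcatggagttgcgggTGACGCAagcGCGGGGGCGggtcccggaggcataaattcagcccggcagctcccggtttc

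The Egr2 stretch lies at chr10:67000497-67000616 on the plus strand and shows the CArG box in capitals. The Zfp36 stretch lies at chr7:29164275-29164394 on the minus strand and shows the EGR site and the CArG box. The Junb stretch, at chr8:87502618-87502737 on the minus strand, shows the TATA box and lies partly outside the TSS peak. All 3 run from -120 to -1. The Nr4a1 stretch, at chr15:101097127-101097276 on the plus strand, runs from -150 to -1 and shows the EGR site and TGCGTCA.
Egr2 promoter: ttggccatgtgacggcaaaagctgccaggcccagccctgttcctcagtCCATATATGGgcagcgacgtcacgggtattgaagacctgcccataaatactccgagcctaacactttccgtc
Zfp36 promoter: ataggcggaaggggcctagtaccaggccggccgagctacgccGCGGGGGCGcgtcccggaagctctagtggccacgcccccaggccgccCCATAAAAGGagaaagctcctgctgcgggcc
Junb promoter: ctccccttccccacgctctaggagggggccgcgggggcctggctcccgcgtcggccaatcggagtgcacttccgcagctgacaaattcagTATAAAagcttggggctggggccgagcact
Nr4a1 promoter: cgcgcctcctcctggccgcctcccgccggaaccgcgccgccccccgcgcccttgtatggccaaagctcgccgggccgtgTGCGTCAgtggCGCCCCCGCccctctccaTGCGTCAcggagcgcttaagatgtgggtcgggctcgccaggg

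To find out whether these promoters were open in these mock-treated cells, the DHS over each TSS was examined first. All 10 members had a DHS over a TSS, and all 18 of their annotated protein-coding TSSs lay inside one. For comparison, 45.1% of all protein-coding genes had a DHS over a TSS, and 72.1% of the 8774 whose promoter was CpG-rich. The exact binomial interval of the members, 69.2 to 100%, includes the CpG-rich share. Of the members, 9 had a CpG-rich promoter at the reference TSS, which is the TSS of the transcript with the longest coding sequence. The exception was Jund, whose reference TSS had a GC content of 46.6%, while its other TSS, 1219 bp downstream, had 68.2% and a CpG ratio of 0.877. The Jund DHS covered both of these TSSs.

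The TSS peaks of the members were wide. Their median width was 3769 bp (range 1941 to 7653), against a median of 1455 bp (quartiles 1072 and 1854) over the 10079 genes with a TSS peak. All 10 members were among the widest 25% of TSS peaks. The scores were more spread. The median was 175 (range 27.76 to 394.46) against 103 (quartiles 65.4 and 154), and 5 of the 10 were among the highest-scoring 25%. The score is the value that the peak caller gave each DHS, on a scale that is not stated.

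**Figure D1:**
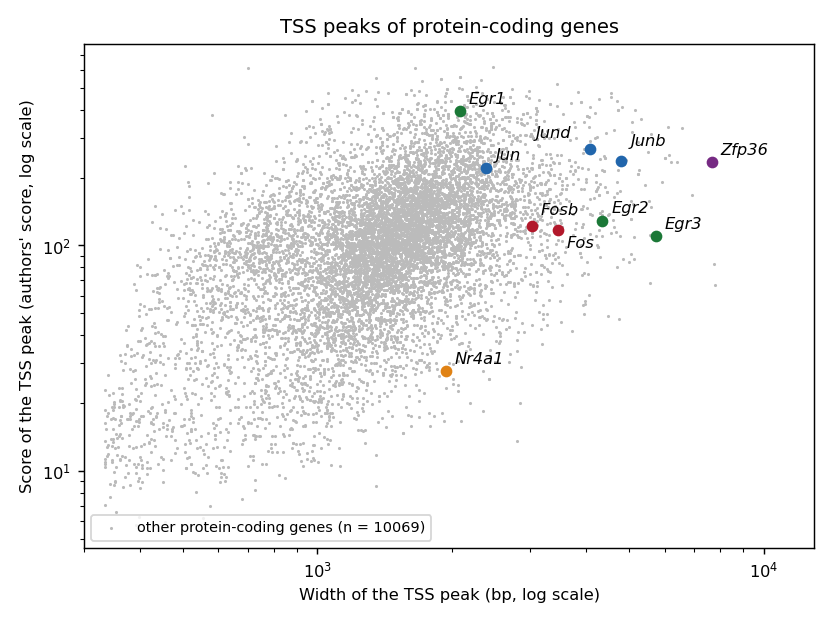
Width in bp (x axis, log scale) and the authors' score (y axis, log scale) of the TSS peak of each protein-coding gene, with the 10 members coloured by family and the other 10069 genes in grey. The members lie to the right, from 1941 bp at Nr4a1 to 7653 bp at Zfp36, while their scores run from 27.76 at Nr4a1 to 394.46 at Egr1.

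At Fos (ENSMUSG00000021250.7, chromosome 12, 86814840 to 86818223, plus strand) the TSS peak spanned 86812761 to 86816216. It was 3456 bp wide, at percentile 97.9 of TSS peaks, and its score of 116.77 was at percentile 58.1. The peak reached 2079 bp upstream and 1376 bp downstream of the TSS and held 40.7% of the gene body. At Fosb (ENSMUSG00000003545.2, chromosome 7, 19888070 to 19895394, minus strand), which encodes a close relative of the Fos protein, the peak spanned 19893376 to 19896403. Its width of 3028 bp was at percentile 96.1 and its score of 121.93 at percentile 60.8. The Fosb peak reached 1009 bp upstream and 2018 bp downstream and held 27.6% of the gene body. The pair had near scores, and both peaks extended well to each side of the TSS.

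At the reference TSS, the peaks of the Jun family lay mostly downstream. At Jun (ENSMUSG00000052684.3, chromosome 4, 94715725 to 94718913, minus strand) the peak at 94716560 to 94718953 was 2394 bp wide with a score of 221.41. It reached 2353 bp downstream but only 40 bp upstream, where after a gap of 52 bp a second DHS began, 2126 bp wide and with a higher score of 303.19. At Junb (ENSMUSG00000052837.4, chromosome 8, 87500811 to 87502617, minus strand) the peak at 87497878 to 87502675 was 4798 bp wide with a score of 237.61. It ran 4739 bp downstream and 58 bp upstream, and a further DHS with a score of 144.6 began 77 bp away. At Jund (ENSMUSG00000071076.4, chromosome 8, 73221638 to 73224515, plus strand) the peak at 73221452 to 73225533 was 4082 bp wide with a score of 267.67, ran 3895 bp downstream and 186 bp upstream, and the next DHS, with a score of 78.09, was 519 bp away.

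A TSS peak that reached under 200 bp upstream and over 2 kb downstream, limits set after the shape of the Jun family had been seen, was found at the reference TSS of these 3 members and of 0.605% of all genes with a TSS peak. From the other, GC-rich TSS of Jund the same peak reached 1405 bp upstream and 2676 bp downstream, so 2 members, Jun and Junb, met the limits at every TSS. Jun, Junb and Jund are genes of a single exon. The peaks of Junb and Jund covered the whole gene body, which held for 1.38% of genes with a TSS peak. At Jun the peak held 73.8% of the gene. With DHS closer than 500 bp joined, the Jun peak became 4572 bp wide and the Junb peak 8324 bp, and both then extended further upstream, so that 1 member, Jund at its reference TSS, still met the limits. Both alternatives were added after seeing the data, and no member met the limits under both.

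**Figure D2:**
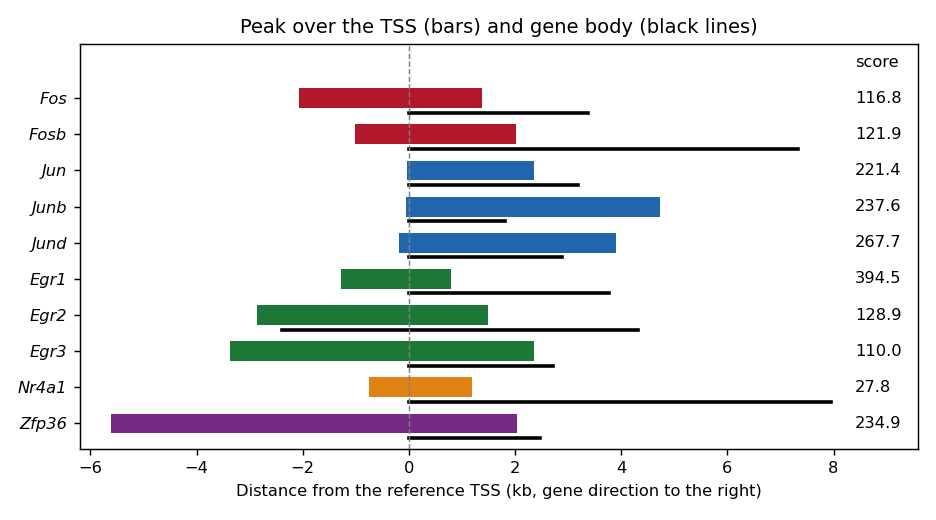
Extent of the TSS peak (coloured bars, by family) and of the gene body (black lines) in kb from the reference TSS, with the authors' score at the right. The bars of Jun, Junb and Jund start 40, 58 and 186 bp before the TSS, whereas that of Zfp36 starts 5608 bp before it.

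The Egr family differed within itself. Egr1 (ENSMUSG00000038418.6, chromosome 18, 35020861 to 35024638, plus strand) had the highest score of the 10, 394.46, at percentile 98.9, on a peak of 2085 bp (35019576 to 35021660) that was narrow for this group. Egr2 (ENSMUSG00000037868.8, chromosome 10, 66998223 to 67004936, plus strand) had a peak of 4347 bp (66997762 to 67002108) with a score of 128.91, and all 6 of its TSSs, up to 2394 bp upstream of the reference TSS, lay inside it. Egr3 (ENSMUSG00000033730.2, chromosome 14, 70477252 to 70479964, plus strand) had a peak of 5737 bp (70473876 to 70479612), 13th by width over the 10079 genes with a TSS peak, with the lower score of 109.97. From Egr1 to Egr2 and Egr3 the peaks thus became wider and their scores lower.

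Nr4a1 (ENSMUSG00000023034.6, chromosome 15, 101097277 to 101105223, plus strand) had the lowest score. Its TSS peak at 101096520 to 101098460 was 1941 bp wide, at percentile 78.5, but its score of 27.76 was at percentile 6.96 of TSS peaks and below the median of 32.65 over all DHS of the list. At the other end by width was Zfp36 (ENSMUSG00000044786.5, chromosome 7, 29161803 to 29164274, minus strand). Its peak at 29162230 to 29169882 was the third widest TSS peak of all, reached 5608 bp upstream, held 82.7% of the gene body and scored 234.92, at percentile 91.5.

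The genes are short, with a median length of 3286 bp (range 1807 to 7947), so that wide peaks took up much of them. The TSS peak held a median of 65.8% of the gene body (range 14.9 to 100%). Over the 1817 genes with a TSS peak whose length was within the same range, the median was 16.9% (quartiles 11.4 and 27.6) and the median peak width 1438 bp. Of the members, 5 of 10 had a peak that ran further downstream than upstream of the reference TSS, against 62.3% of all genes with a TSS peak.

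The surroundings were examined next. The windows held a median of 13 DHS (range 5 to 21) that covered a median of 19.2 kb (range 6 to 25.8). Over the genes with a TSS peak the medians were 7 DHS and 7.14 kb, and over all protein-coding genes 5 DHS and 4.19 kb. In 4 of the 10 windows the TSS peak had the highest score, against 43.9% of genes with a TSS peak, and in 7 of 10 it was the widest, against 42.6%. Of the 122 other DHS, 18 lay over the TSS of another protein-coding gene. In all, 62 were distal, which means that they touched no stretch between 5 kb before and 2 kb after an annotated TSS, and 34 of these had a member as the nearest protein-coding gene.

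**Figure D3:**
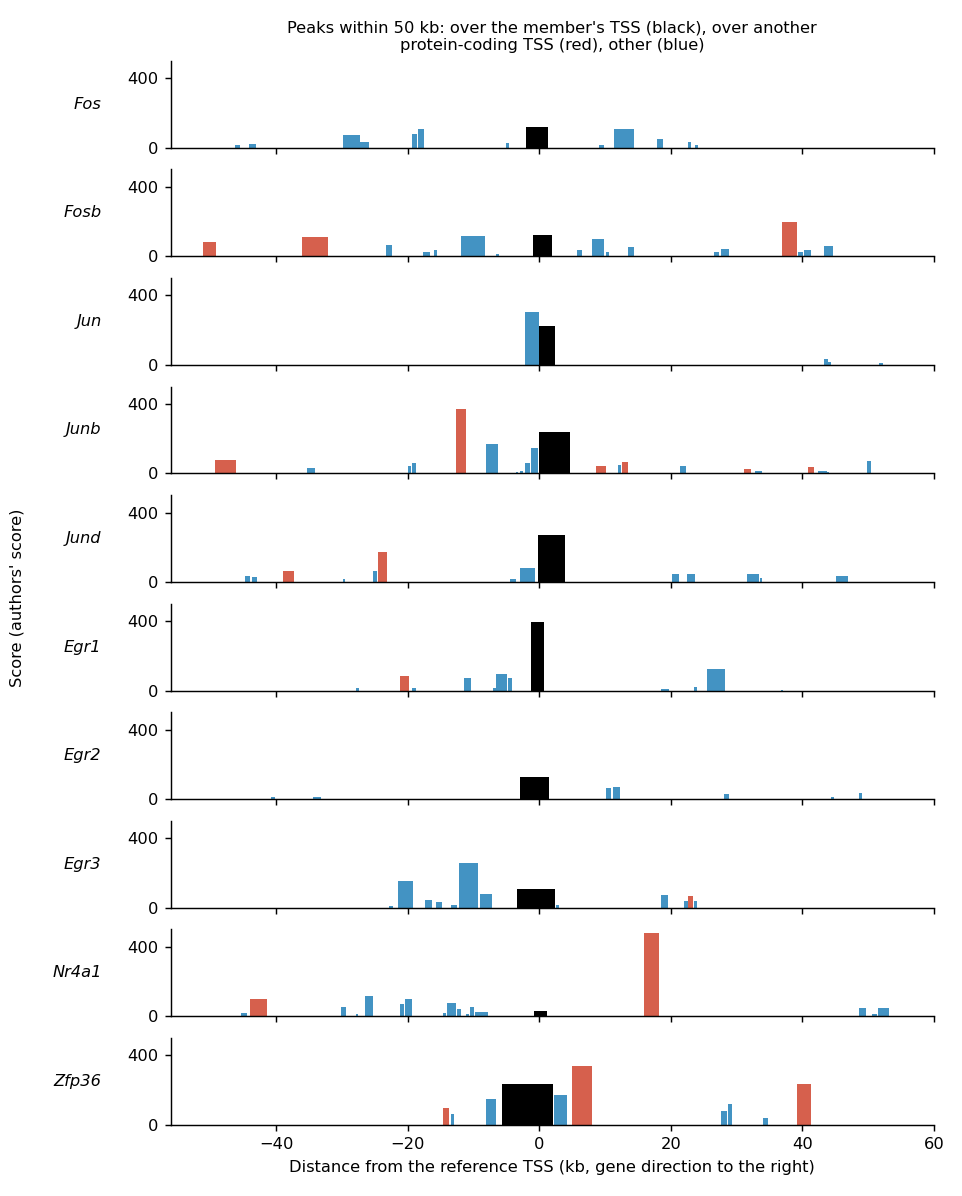
DHS within 50 kb of each member, drawn to scale by distance from the reference TSS in kb (x axis) and by the authors' score (bar height). Black bars lie over the member's TSS, red bars over the TSS of another protein-coding gene and blue bars elsewhere. The window of Fos has no red bar, 2 blue bars of Egr3 are higher than its black bar, and the black bar of Nr4a1 is the lowest.

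Fos had no other protein-coding gene close by. All 13 DHS of its window had Fos as the nearest protein-coding gene, and 11 were distal. Of these the highest score, 109.36, was centred at -17.9 kb, near the 116.77 of the TSS peak, and beside it lay a DHS with a score of 77.08. Downstream, a DHS of 3013 bp centred 12.9 kb from the TSS had a score of 107.72. No DHS other than the TSS peak touched the Fos gene body. CArG boxes lay in the distal DHS centred at -43.6, 12.9 and 18.3 kb, beside 3.75% of all distal DHS. The box in the DHS at 12.9 kb is shown in capitals with 30 bases on each side (chr12:86827034-86827103, plus strand).
Fos +12.2 kb: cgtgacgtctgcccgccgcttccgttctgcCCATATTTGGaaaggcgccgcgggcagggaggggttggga

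Egr3 had 7 DHS upstream, centred from -22.6 to -8.08 kb, and all of them were distal with Egr3 as the nearest protein-coding gene. The DHS at -10.8 kb was 2958 bp wide with a score of 255.64 and that at -20.3 kb was 2320 bp wide with a score of 155.9. Both scored above the TSS peak itself, with 109.97. An AP-1 site lay in each of them and in 2 more of the 7, beside 14.5% of all distal DHS. The 2 further DHS were 933 and 1706 bp wide. Over all distal DHS the median width was 602 bp, and this comparison was not adjusted for width. The AP-1 sites of the high-scoring pair are shown with the site in capitals and 30 bases on each side (chr14:70456953-70457019 and chr14:70467808-70467874, plus strand).
Egr3 -20.3 kb: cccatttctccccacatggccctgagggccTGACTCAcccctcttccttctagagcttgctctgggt
Egr3 -9.41 kb: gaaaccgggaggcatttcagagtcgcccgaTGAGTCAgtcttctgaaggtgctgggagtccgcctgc

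Nr4a1 likewise had most of its DHS upstream, with 13 of 18. Of these 8 had Nr4a1 as the nearest gene, centred from -20.8 to -8.75 kb, and the highest score among them was 100.29, at -19.8 kb. In total 11 of the 17 other DHS scored above the TSS peak. The highest, 477.02, lay over the TSS of 9430023L20Rik, 17.1 kb downstream, and a DHS over the TSS of Grasp scored 97.76. There was no further DHS inside the Nr4a1 gene body.

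At Egr1 the TSS peak stood far above its surroundings. The next highest score in the window was 121.62, in a distal DHS of 2757 bp centred 26.9 kb downstream, and the upstream neighbours nearest to the TSS, at -4.45 and -5.68 kb, scored 74.41 and 97.99. Egr2 had 8 DHS, with a gap of 8626 bp between the TSS peak and the next. The highest of the others scored 69.63, at 11.7 kb downstream near Ado. Jun had the fewest, 5 DHS, and apart from the pair at its TSS the other 3 lay in introns 43.6 to 51.9 kb downstream, nearest to the TSS of Mysm1, with scores from 9.96 to 35.5.

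The remaining members lay among other genes. The window of Junb held 21 DHS, of which 6 lay over other TSSs, and the DHS over Hook2, at -11.8 kb, had a score of 372.64 against 237.61 at Junb. Close to the Junb promoter was a row of 4 DHS centred between -0.707 and -3.4 kb, with scores falling with distance from 144.6 to 60.51, 14.8 and 10.68. Fosb had 18 DHS. The highest score, 198.34, was over the TSS of Vasp, 38 kb downstream, while a distal DHS of 3697 bp centred at -10.1 kb scored 118.27, close to the 121.93 of the TSS peak.

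Of the 10 DHS around Zfp36, 2 were distal, and the peaks over Plekhg2 (336.35) and Supt5h (235.46) scored above the 234.92 of Zfp36. A DHS of 1956 bp with a score of 173.84 covered the 3′ end of Zfp36, so that 91.1% of the gene body lay in DHS. Jund had 14 DHS, 3 of them distal, and its TSS peak also covered a TSS of the annotated gene Gm11175. The highest of the others, 174.63, was over the TSS of Lsm4.

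The words by which signals reach these promoters were then counted from 250 bases upstream to 50 downstream of the reference TSS, on both strands. The CArG box and the NF-kappaB site are degenerate words known by these names. A CArG box was present at 3 of the 10 members, Egr1, Egr2 and Zfp36, against 1.45% of all protein-coding promoters and 1.08% of CpG-rich ones. In the longer stretch from 500 upstream to 100 downstream it was present at 5 of 10, with Fos and Fosb added, against 2.91% of all and 2.61% of CpG-rich promoters. These 5 promoters held 10 CArG boxes, all inside the TSS peak. Egr1 alone held 5, between -407 and -74, and of 22342 promoters it was the 1 with 5 or more, while 18 had at least 2. Egr2 held a pair, at -375 and -72, and Zfp36 1, from -31 to -22. A match of the word does not show that the factor binds there.

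The CArG boxes of Fos and Fosb had the same neighbour. The Fos box, from -309 to -300, and the Fosb box, from -272 to -263, were each followed by 5 bases and then by TGCGTCA, as can be read in the sequences above. This word was added after these sequences had been seen. The arrangement occurred in 2 of 22342 promoters, which were those of Fos and Fosb, or 0.00895%. TGCGTCA itself was present at 2 members, Fosb and Nr4a1, against 2.48% of promoters in the shorter stretch, and at 3, with Fos added, against 3.36% in the longer. Nr4a1 had 4 copies, at -235, -215, -71 and -42, and no CArG box in either stretch.

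Other words are given for comparison. An EGR site was present at Fosb, Nr4a1 and Zfp36, 3 of 10 against 7.69% of all and 16.8% of CpG-rich promoters, and the GC box (GGGCGG, which overlaps part of the EGR site at Fosb and Nr4a1, and shares a base with the CArG box at Zfp36) at 5 of 10 against 44.6% and 77.7%. The TATA box was present at 2 of 10, from -33 at Fos and from -30 at Junb, against 13.4% and 4.7%. The NF-kappaB site was found at 3 of 10, Fos, Fosb and Nr4a1, against 4.88% and 5.69%. The cAMP response element TGACGTCA, the AP-1 site and the Ets site CCGGAAGT were at 0 of 10, against 2.34%, 4.34% and 4.87% of all promoters and 3.69%, 2.2% and 7.98% of CpG-rich ones. Only exact matches of a word were counted, so a count of 0 does not show that the element is absent. In the longer stretch the EGR site was at 4 members, against 10.1% of all and 21.9% of CpG-rich promoters. The GC box was at 8 of 10, above the 51% of all promoters but below the 85.7% of CpG-rich ones. The TATA box was at 3, against 25.9% and 12.1%, and the NF-kappaB site at 4, against 8.71% and 10.3%. The cAMP response element, the AP-1 site and the Ets site were still at 0, against 2.73%, 8.34% and 5.66% of all promoters and 4.34%, 5.47% and 9.37% of CpG-rich ones. When every annotated TSS was used, an alternative added after seeing the data, the second TSS of Jund brought in a cAMP response element and 3 EGR sites.

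**Figure D4:**
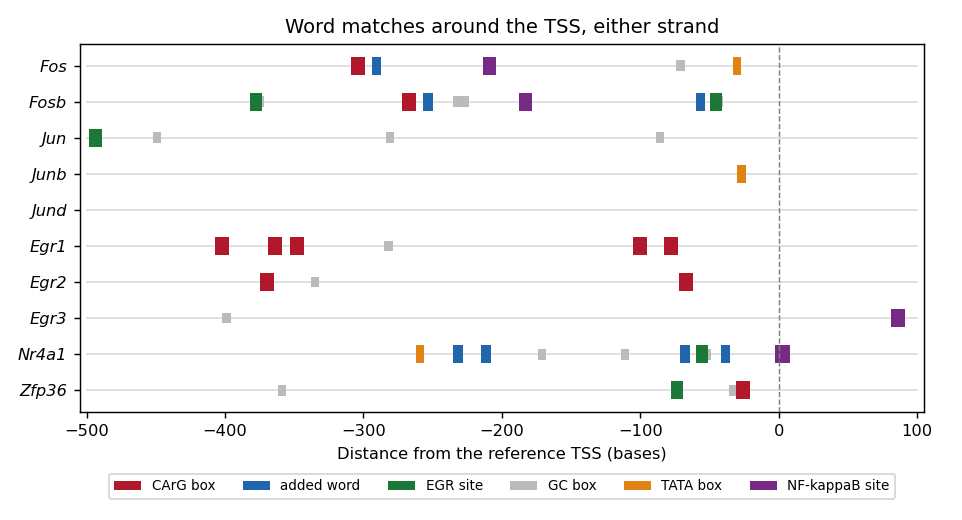
Word matches on either strand from 500 bases upstream to 100 downstream of the reference TSS of each member (x axis in bases, bars to scale). The added word is TGCGTCA, which stands just right of the CArG box at Fos and Fosb, and Egr1 carries 5 CArG boxes.

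Over the whole TSS peak, 7 of 10 members held a CArG box, against 6.03% of genes with a TSS peak, and all 10 an NF-kappaB site, against 23.5%. The EGR site was in 7, against 22%, and the TATA box in 6, against 34.9%. The GC box was in all 10, against 85.9%, the AP-1 site in 2, against 16.3%, the Ets site in 1, against 13.6%, and the cAMP response element in 1, against 5.21%, counts that lie near those shares. Since the members' peaks were wide, matches were also counted per kb, which gave 0.329 against 0.0419 for the CArG box, 0.582 against 0.204 for the NF-kappaB site, 0.455 against 0.182 for the EGR site and 0.152 against 0.123 for the AP-1 site. The value for the CArG box rests on 13 matches, which include the boxes of the Egr1 promoter described above. The other words had lower values at the members, with 1.97 against 2.07 for the GC box, 0.228 against 0.338 for the TATA box, 0.0253 against 0.102 for the Ets site and 0.0253 against 0.0362 for the cAMP response element.

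In distal DHS an AP-1 site was found in 14 of the 62 around members (22.6%, exact binomial interval 12.9 to 35) and in 14.5% of all 24945 distal DHS. Per kb the values were 0.224 and 0.211, since the DHS around members were wider, with a median of 793 against 602 bp. A CArG box was found in 6 of the 62 (9.68%, 3.63 to 19.9), which were DHS around Fos, Junb, Egr3 and Nr4a1, and in 3.75% of all. Per kb this was 0.096 against 0.0496. The intervals are at the 95% level and cover counting error only. Those of the distal DHS treat each DHS as independent, although DHS of the same window are neighbours.

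To place the members among related genes, 4 further lists were examined. Of 31 other early response genes 26 had a TSS peak (83.9%, beside 45.1% of all and 72.1% of CpG-rich genes, with 22 of the 31 CpG-rich). The interval of 66.3 to 94.5% includes the CpG-rich share. The TSS peaks had a median width of 2737 bp and a median score of 192. The genes without a TSS peak were Egr4, Cyr61, Ctgf, Npas4 and Rgs1, and Rgs1 had a DHS within 1 kb of its TSS. The members' medians were 3769 bp and 175. Ier2 had a peak of 4920 bp with a score of 240.35 and Nr4a3, a relative of Nr4a1, one of 4605 bp with 129.82, while that of Nr4a2 was 3972 bp wide with a score of 54.79.

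Of 14 AP-1 and ATF partners 10 had a TSS peak. This was 71.4%, near the 72.1% of CpG-rich genes, and 12 of the 14 were CpG-rich. The TSS peaks had a median width of 1778 bp and a median score of 80.1, below the 103 of all TSS peaks. Among those without one were Batf2 and Batf3, relatives of the AP-1 subunit Batf, and Mafg, which had a DHS within 1 kb. Fosl1 and Fosl2, the other Fos family genes, had scores of 33.51 and 40.76 and widths of 1812 and 1770 bp, all lower than at Fos and Fosb. Atf3, a stress-induced factor, had the widest peak of that list, at 4691 bp.

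Of 20 upstream regulators 17 had a TSS peak (85%, interval 62.1 to 96.8, which includes the 72.1% of CpG-rich genes), and 16 of the 20 were CpG-rich. The TSS peaks had a median width of 1574 bp and a median score of 142. Srf, which encodes serum response factor, Crtc1, a CREB coactivator, and Mapk3, which encodes the kinase ERK1, had none over the TSS, but all 3 had a DHS within 1 kb. All 4 corepressors and relatives (Nab1, Nab2, Zfp36l1 and Zfp36l2) had one, of which 3 were CpG-rich, and the interval of 39.8 to 100% includes the same share. Nab2, a corepressor of the Egr factors, had a peak of 3616 bp with a score of 177.14 and Nab1 one of 833 bp with 74.47.

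**Figure D5:**
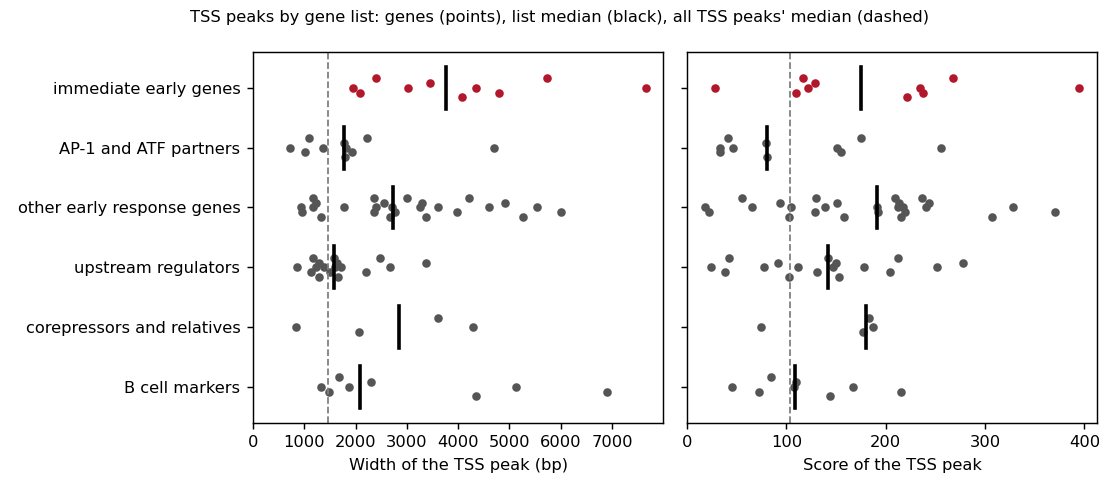
Width in bp (left) and authors' score (right) of the TSS peak for each gene that has one, by list, with the list's median as a black line. The median over all 10079 genes with a TSS peak is dashed. The members have the highest median width, 3769 bp, ahead of 2844 bp for the corepressors and relatives and 2737 bp for the other early response genes, but not the highest median score.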

How the data were processed

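Splenic B cells were profiled by DNaseI-seq. The peak list deposited for the DNaseI library gives each DHS a chromosome, a start, an end and a score. Per the labels' processing notes, BWA 0.6.2, SAMtools and mm9 were used. The peak names are those of MACS. Its version and settings for this library, and the scale of the score that the authors deposited, are not given in the sources used here. No read counts are given, so the depth is unknown and a DHS that is missing was not called, which is not the same as closed chromatin. The input library was not analysed here.

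DHS were placed on GENCODE M1 and the NCBI build 37 genome, which is mm9. All DHS of chromosomes 1 to 19 and X ended inside their chromosome except 1. A gene had a TSS peak when the TSS of a protein-coding transcript lay in a DHS, and the highest-scoring was taken. Percentiles and ranks are over the 10079 genes with a TSS peak, with 1 peak per gene. A DHS shared by several genes therefore counts once for each of them. CpG-rich promoters had, in 1000 bp around the TSS, 55% GC or more and 0.6 or more of the CpG number expected from base composition. A DHS counted in a window with at least 1 bp of overlap. Python 3.11.15 was used, and the overlap and word search were tested on simulated data.

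The members and lists were chosen with earlier results of these data known. Named are all members, the genes of a list without a TSS peak where fewer than 6 lack one (otherwise those with one where fewer than 6 have one, otherwise the 3 of highest score), neighbours with a TSS peak that outscores the member's, and the 3 genes most like the members. An item that this rule would name is not reported here. The word TGCGTCA, Ier2, Nr4a2, Nr4a3, Fosl1, Fosl2, Atf3, the corepressors and relatives, and the neighbours Ado, Mysm1, Lsm4 and Gm11175, were chosen after their values were seen. Alternatives were another choice of TSS, wider promoter windows, DHS at or above the median score, joined DHS, other flanks and other word windows.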

Additional observations from a re-analysis of the deposited data

How the results depend on the processing

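All 10 members had a TSS peak at the 5′ end of the gene record, within 1 kb, from 5 kb upstream to 2 kb downstream and with joined DHS, and 9 with DHS at or above the median score, where Nr4a1 was lost. Within 1 kb, 11836 of all 22342 protein-coding genes and 7364 of the 8774 CpG-rich ones had a DHS. Shares over all genes under the other settings are not given here. With DHS under 500 bp apart joined, the members' median width became 4214 bp (1683 bp over all genes with a TSS peak) and their median score 182. The median number of DHS per window was 8.5 with flanks of 20 kb, 21.5 with flanks of 100 kb, 9 with DHS at or above the median score and 10.5 with joined DHS, and over genes with a TSS peak it was 4, 12, 4 and 6. Of 80 values of single members under these settings, 53 stayed within 1.5 times the value reported and 27 did not, all of them under another flank, the score minimum or joining.

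Word counts grew with the stretch searched, by construction. From 500 upstream to 100 downstream the CArG box was at 5 members and the GC box at 8. In the whole TSS peak, beside the share of all genes with a TSS peak, the CArG box was at 7 (6.03%), the cAMP response element at 1 (5.21%), the AP-1 site at 2 (16.3%), the EGR site at 7 (22%), the GC box at 10 (85.9%), the TATA box at 6 (34.9%), the Ets site at 1 (13.6%) and the NF-kappaB site at 10 (23.5%). With every TSS of a gene, an alternative chosen after seeing the data, the cAMP response element was at 1 member, the EGR site at 4 and the GC box at 7. At the reference TSS these counts were 0, 3 and 5. No share over all genes at every TSS is given here. No paired analysis was possible because the list comes from 1 library. The unknown depth limits every statement on a missing DHS or a gap between DHS.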

Other observations

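The genes whose promoters looked most like the members' were sought over the 10079 genes with a TSS peak, by the distance to the median of the members in 4 percentile ranks (width and score of the TSS peak, number of DHS and bases covered within 50 kb), in 1 library. The 3 nearest were Cd180, Cd72 and Fam129c, at distances of 5.61, 6.42 and 6.56 percentile points. Cd180 encodes a Toll-like receptor relative of B cells and Cd72 a B cell surface receptor. Cd180 had a TSS peak of 3407 bp with a score of 150.16 and 13 DHS within 50 kb, Cd72 one of 3304 bp with 157.86 and 15 DHS, and Fam129c one of 2843 bp with 161.35 and 12 DHS. The members' medians were 3769 bp, 175 and 13 DHS.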
